A study of Mus musculus with 24 samples.

Results

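The ductus arteriosus (DA) of mouse embryos that lacked functional Prdm6 in the Wnt1 lineage was compared with the DA of control embryos by RNA-Seq. The comparison holds the 12 DA samples with deposited counts, 5 Prdm6-deficient and 7 control, out of 23 samples with counts in the series, whose other samples are ascending aortas. All samples were taken at embryonic day E18.5 on a C57BL/6 background. The Prdm6-deficient group carried Wnt1Cre;PRDM6f/f, in which Cre driven by the Wnt1 promoter acts in the neural crest and its descendants, so cells of other origins in the vessel keep the intact gene. Replicates 1 and 2 of this group are pools of 2 embryos, and replicates 5, 6 and 7 are single embryos. Replicate 4 was not analysed here. Of the controls, 5 were PRDM6wt/f, replicate 3 was PRDM6wt/wt, and replicate 2 was Wnt1Cre;PRDM6wt/wt, the only control with Cre.

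The DA is the fetal artery that joins the pulmonary artery to the aorta and carries blood past the unused lungs. Its wall holds smooth muscle cells (SMCs) that descend from the cardiac neural crest. They are kept relaxed before birth, largely by prostaglandin E2, and contract when oxygen rises and prostaglandin falls after birth, which closes the vessel. Prdm6 is an SMC-selective protein of the PR-domain family, and the study asked what its loss does to gene expression in this vessel. In control DA the SMC gene Acta2 was at 4942 to 8666 CPM, and the DA factor Tfap2b averaged 35.9 CPM against 3.52 CPM in the control aorta.

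Levels are given as TMM-scaled CPM, that is, counts scaled to library size after a correction for composition. Of 54752 genes in the table, 15157 passed the filter on low counts and entered the quasi-likelihood test of edgeR. A gene was called where the Benjamini-Hochberg adjusted p was below 0.01 and the log2 fold change lay beyond 0.5 in either direction. Total counts ran from 16945227 to 22318867 over the Prdm6-deficient libraries and from 15163974 to 21037037 over the controls, and 3 counts, the smallest number taken as detected, stood for 0.134 to 0.198 CPM before composition scaling. The libraries were noisy, with a common biological coefficient of variation of 43.2% in the DA against 24.3% in the aorta. The animal numbers fall into 2 series. The first holds Prdm6-deficient replicates 1, 5 and 6 and control replicates 2 and 3, and the second holds the remaining samples. Every control of the second series is PRDM6wt/f and neither control of the first carries a floxed allele, so series and control genotype cannot be told apart. The embryos differed in sex by sex-linked genes. The Y-linked gene Ddx3y was at 102 CPM in Prdm6-deficient replicate 1 and 83.7 to 104 CPM in control replicates 1, 6 and 7. It was at 44.7 CPM in the pool of Prdm6-deficient replicate 2 and at most 1.73 CPM in the remaining libraries. Of 5 sex-linked genes 0 were called, and the part of sex in the differences was not tested. Some libraries stood apart in markers of other cells. Summed erythroid markers were highest in Prdm6-deficient replicate 1, where no other DA library exceeded 67138 CPM, summed cardiomyocyte markers reached 1271 CPM in control replicate 1, and summed Schwann cell markers reached 506 CPM in control replicate 7.

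The targeted gene, Prdm6 (chr18:53463583-53575907, plus strand of mm10), was at 78.2, 70.4, 77.2, 78.6 and 58.8 CPM in Prdm6-deficient replicates 1, 2, 5, 6 and 7 and at 85.4 to 128 CPM with a median of 104 CPM in the 7 controls. The ranges did not overlap, and the mean of the Prdm6-deficient group was 67.2% of the control mean (log2 fold change -0.57, SE 0.11, edgeR adjusted p = 0.0031). Without Prdm6-deficient replicate 2 or 7 the adjusted p was 0.0112 and 0.0110, so the call was lost, and it was also lost without both pools (0.0271). These are counts over the whole gene, which do not separate the floxed part of the transcript, and they include cells that Cre did not reach. Of the 10 tested genes of the PR-domain family, Prdm6 was the only one called.

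Across all tested genes, 611 (4.03%) were called. The expression of 370 genes (2.44%) was lower and of 241 genes (1.59%) was higher in Prdm6-deficient DA. The counts in each gene list below stand against these shares. Decreases were also larger: 101 genes fell beyond 4-fold and 28 rose beyond 4-fold. The values of the groups did not overlap for 334 of the genes called lower, where 3.26% of all tested genes lay wholly below the controls, and for 220 of the genes called higher, where 2.8% lay wholly above (6.06% in all). With the libraries left out in turn, 486 to 647 genes were called, and 419 of the 611 were called in all 12 fits. Without Prdm6-deficient replicate 1 and control replicates 1 and 7, the libraries with the highest erythroid, cardiomyocyte and Schwann cell markers, 376 genes were called, 363 of them among the 611. On a principal component analysis of the 500 most variable genes, the first component held 27.8% of the variance, with Prdm6-deficient samples from -31.4 to -28.0 and controls from 10.2 to 41.0.

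**Figure D1:**
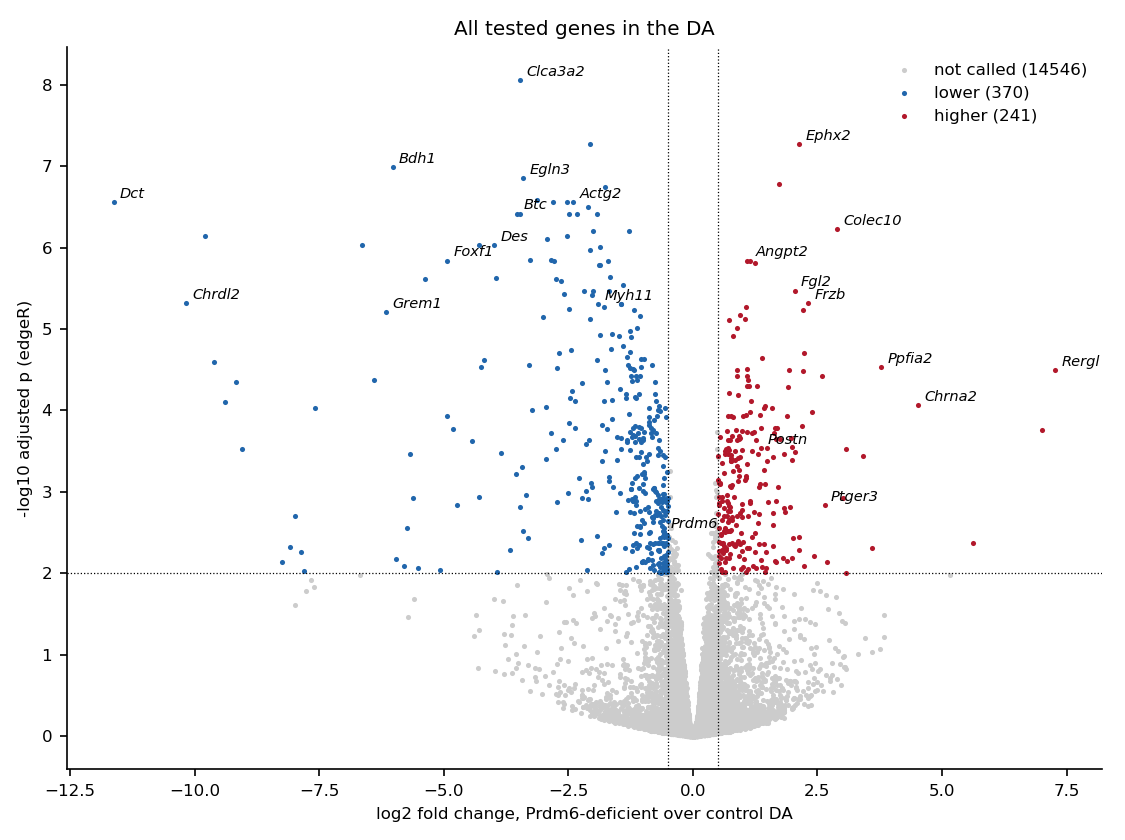
The x axis gives the log2 fold change of Prdm6-deficient over control DA and the y axis the -log10 adjusted p for 15157 tested genes, with dotted lines at the thresholds. The 370 genes called lower (blue) reach further from 0 than the 241 called higher (red).

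The control embryo that carried Cre without a floxed allele lay outside the Prdm6-deficient range, on the side of the other controls, for 595 of the 611 called genes (97.4%). For the other 6 controls this share was 97.2% to 99.8%. The genes were called with these libraries among the controls, which largely fixes such shares. Without this control 623 genes were called. All Prdm6-deficient samples and 1 control carried Cre, and its part in the differences was not tested beyond these values.

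The 2 animal series share no sample, and each can be fitted alone. The first series, 3 Prdm6-deficient samples against 2 controls, called 61 genes, and the second, 2 against 5, called 147. Both series called 40 genes, which is 65.6% of the first list and 27.2% of the second. All 61 genes called in the first series had the same sign in the second, and all 147 called in the second had the same sign in the first, where 62.8% of all genes tested in both had the same sign. Of the 611 genes, 609 had a value in both series and all 609 had the same sign, which their selection on the pooled samples favours.

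**Figure D2:**
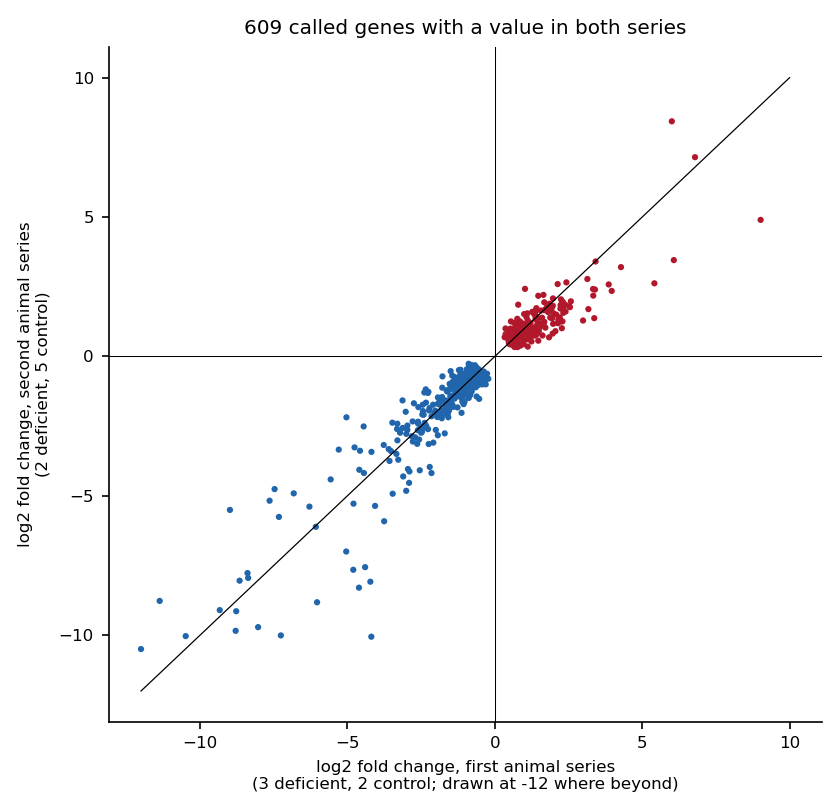
Each point is 1 of the 609 called genes with a value in both animal series, with the log2 fold change in the first series on the x axis, in the second on the y axis, and the line of equal values (blue called lower, red called higher, values beyond -12 drawn there). The points lie at the lower left and the upper right, and none of the 609 changes sign.

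Of 34 measured contractile and cytoskeletal genes of smooth muscle, 20 were lower, 0 were higher and 14 did not pass the test, and the median log2 fold change was -0.75 against 0.00 for all tested genes. The number called lower was 13 to 22 when each library was left out, 13 without Prdm6-deficient replicate 2, and the median was -0.55 in the first and -0.89 in the second series. DESeq2 called 22 lower and 0 higher. In the upward direction 1 gene had an unadjusted p under 0.05 with edgeR, Mylk4, at a log2 fold change of 1.74 (adjusted p = 0.0788). In bulk tissue, fewer SMCs and less RNA per SMC cannot be told apart.

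Des, which encodes the muscle intermediate filament desmin (chr1:75360329-75368579, plus strand), fell the most of this group. It was at 21.0, 35.5, 14.6, 17.6 and 53.1 CPM in the 5 Prdm6-deficient samples and at 265 to 647 CPM with a median of 401 CPM in the controls. All Prdm6-deficient samples lay far below all controls (log2 fold change -3.99, SE 0.33, edgeR adjusted p = 9.4e-07). Actg2, smooth muscle gamma-actin, was at 262, 240.2, 282, 279 and 233 CPM against 967 to 1952 CPM with a median of 1288 CPM (log2 fold change -2.40, SE 0.18, edgeR adjusted p = 2.7e-07). Actg2 shares near-identical sequence with Acta2 and the other actins, among which the counting could divide reads. Myh11, the smooth muscle myosin heavy chain, was at 577, 382, 673, 595 and 462 CPM against 1419.8 to 2860.4 CPM with a median of 1904 CPM (log2 fold change -1.90, SE 0.19, edgeR adjusted p = 4.9e-06). The groups did not overlap for either gene. Among called genes, the 6 largest losses of mean CPM were in the SMC genes Tagln, Myh11, Actg2, Cnn1 and Flna and in Fn1, which encodes fibronectin. Tagln fell from 6834 to 4314 CPM (log2 fold change -0.66), Cnn1 from 1453 to 461 CPM (log2 fold change -1.66) and Flna from 3143 to 2154 CPM (log2 fold change -0.55). Synemin (Synm), another intermediate filament protein, fell from 19.3 to 6.02 CPM (log2 fold change -1.68). Acta2, smooth muscle alpha-actin, had a log2 fold change of -0.51 and an adjusted p of 0.0155, which did not pass. It passed with DESeq2 (-0.50, adjusted p = 2.28e-04) and with edgeR without control replicate 1 (-0.56, adjusted p = 0.00319) or 2 (-0.56, adjusted p = 0.00456). Its level was 4393 to 5120.1 CPM in Prdm6-deficient and 4942 to 8666 CPM in control DA. The call held for Tagln in 11, Flna in 6 and Synm in 7 of the 12 fits without 1 library.

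Serum response factor drives many of these genes through CArG boxes, which are short runs of A and T between CC and GG. Of the 34 contractile genes, 28 have a RefSeq promoter window (GRCm38.p6), and 5 of these hold an exact CArG box within the 250 bases before the start. Only runs made wholly of A and T were counted. Near matches with another letter inside, as in the Acta2 window, were not, so a gene without a count may still hold a looser box. The 2 of the 5 that fell are shown here, Myl9, a myosin regulatory light chain, and Vcl, vinculin of the cell adhesions, with the CArG box in capitals. Myl6, Myl7 and Ldb3, which also hold one, were not called. The Myl9 window is chr2:156775214-156775463 and the Vcl window chr14:20929148-20929397, both on the plus strand.
Myl9: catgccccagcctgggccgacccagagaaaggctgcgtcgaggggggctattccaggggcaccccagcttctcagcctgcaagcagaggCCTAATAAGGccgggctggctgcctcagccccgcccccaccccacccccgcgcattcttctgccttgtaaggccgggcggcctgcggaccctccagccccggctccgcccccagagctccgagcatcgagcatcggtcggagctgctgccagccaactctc
Vcl: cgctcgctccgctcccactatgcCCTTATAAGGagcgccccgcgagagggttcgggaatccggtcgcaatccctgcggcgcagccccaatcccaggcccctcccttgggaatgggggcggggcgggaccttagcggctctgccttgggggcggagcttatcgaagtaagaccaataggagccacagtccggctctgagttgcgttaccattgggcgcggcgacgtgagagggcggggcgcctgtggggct
The box begins 161 bases before the start of Myl9 and 227 bases before that of Vcl. Myl9 fell from 1981 to 1318 CPM (log2 fold change -0.59) and Vcl from 329.7 to 218 CPM (log2 fold change -0.60). Among all tested genes with a window, 160 of 10986 (1.46%) hold a CArG box in this stretch, against 8 of 265 (3.02%) of the genes called lower and 4 of 177 (2.26%) of those called higher. A match describes the letters of these windows only. When each library was left out, Myl9 in 8 of the 12 fits kept the call.

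**Figure D3:**
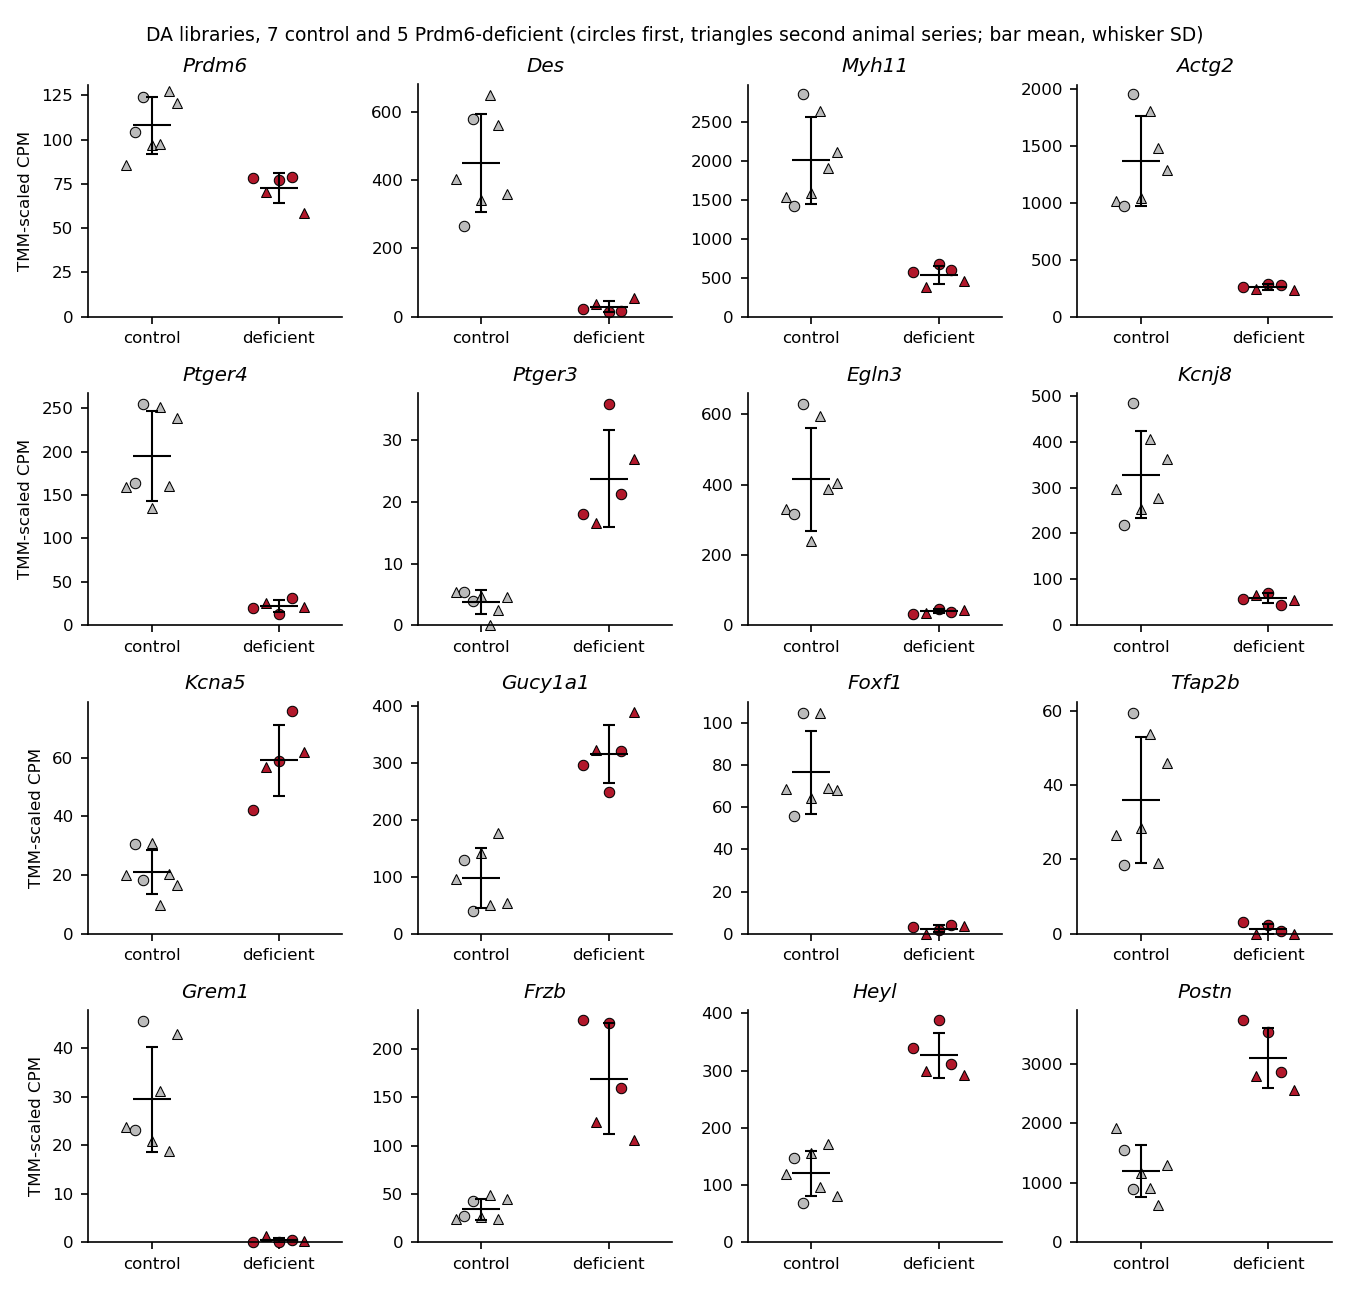
TMM-scaled CPM of 16 genes in each DA library, with 7 control (grey) and 5 Prdm6-deficient (red) points, circles for the first and triangles for the second animal series, a bar at the mean and whiskers of 1 SD. In all 16 panels the groups stand apart without overlap, lower in Prdm6-deficient DA for genes such as Des and Ptger4 and higher for genes such as Ptger3 and Postn.

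Of 23 measured genes for Srf, its cofactors and other factors of SMC identity, 1 (4.35%) was lower, 3 (13.0%) were higher and the median was 0.00. DESeq2 and the fit of both vessels each called 3 lower and 3 higher, while the edgeR fits that left out a library called 0 to 2 lower and 3 higher. Srf was at 59.6 to 67.4 CPM in Prdm6-deficient DA and 56.7 to 104 CPM in controls, with a log2 fold change of -0.51 that did not pass (edgeR adjusted p = 0.014). Without control replicate 1, whose 56.7 CPM lay below the other 6 controls, it passed at -0.60 (edgeR adjusted p = 1.65e-04), and it also passed with DESeq2 (-0.51, adjusted p = 0.00258). Myocd, the SMC coactivator myocardin, had a value of -0.65 (adjusted p = 0.0705). Its relatives Mrtfa (0.14) and Mrtfb (0.11) did not pass either. Tead3, a TEA-domain factor, fell (-0.61) and passed in 3 of 12 fits that left out a library. Mef2c rose by 0.58 and Hopx, a homeodomain-only protein, by 1.68 on the log2 scale.

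Transcription factors of the neural crest and outflow tract moved in both directions, with 5 of 37 lower and 5 higher. The number called higher was 2 without Prdm6-deficient replicate 1 or 6 or control replicate 1 and 3 without Prdm6-deficient replicate 5 or 7 or control replicate 4 or 7. The forkhead factor Foxf1 (chr8:121084386-121088144, plus strand) was at 2.99, 0.0565, 1.78, 3.97 and 3.69 CPM in Prdm6-deficient samples against 55.7 to 105 CPM with a median of 68.6 CPM in controls (log2 fold change -4.94, SE 0.43, edgeR adjusted p = 1.4e-06). Tfap2b, the AP-2 factor that is required for DA closure, was at 3.18, 0, 2.37, 0.863 and 0.0492 CPM against 18.6 to 59.5 CPM with a median of 28.6 CPM (log2 fold change -4.80, SE 0.67, edgeR adjusted p = 1.7e-04). For both genes all Prdm6-deficient samples lay below all controls, and 4 of the 5 for Foxf1 and 3 of the 5 for Tfap2b were above the detection limit. Sox9, a factor of cartilage and neural crest, fell from 30.4 to 4.63 CPM (log2 fold change -2.72). The homeobox factor Prrx2 (-1.21) fell too. In the other direction, the homeobox gene Dlx1 rose from 0.802 to 9.80 CPM (log2 fold change 3.59) and passed in 6 of 12 fits that left out a library. The T-box repressor Tbx2 rose from 13.3 to 53.0 CPM (log2 fold change 1.99). Hand2, Foxc1 and Twist1 rose by 1.37, 1.06 and 0.65, and of these Hand2 passed in 4 of 12 and Twist1 in 3 of 12 such fits. Of 13 measured Hox genes, Hoxa5 was the only one called (-1.30), a share of 7.69%. Of the 13, 11 had negative values, with a median of -0.75 that was -0.27 within the first and -0.88 within the second series.

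Among 18 prostaglandin genes, 2 (11.1%) were lower and 1 (5.56%) was higher, and these include 2 receptors for prostaglandin E2. Ptger4 (chr15:5206661-5244187, minus strand), the relaxing EP4 receptor of the DA, was at 19.6, 26.0, 13.1, 31.1 and 21.1 CPM against 135 to 256 CPM with a median of 164 CPM in controls (log2 fold change -3.14, SE 0.22, edgeR adjusted p = 2.6e-07). Ptger3, the EP3 receptor, which couples to inhibition of cyclic AMP, was at 18, 16.6, 35.9, 21.2 and 26.9 CPM against 0.107 to 5.42 CPM with a median of 4.59 CPM (log2 fold change 2.64, SE 0.47, edgeR adjusted p = 0.00146). The EP4 transcript was thus lower and the EP3 transcript higher in every Prdm6-deficient sample than in any control. Pla2g4a, the phospholipase that releases arachidonic acid, fell from 56.7 to 26.8 CPM (log2 fold change -1.08). The cyclooxygenases Ptgs1 (-0.26) and Ptgs2 (-1.90) did not pass.

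Of 25 genes for constrictor peptides, their converting enzymes and receptors, 3 were lower and 0 higher. Edn1, the constrictor peptide endothelin-1, fell from 69.3 to 31.3 CPM (log2 fold change -1.15), and Ece1, the enzyme that converts its precursor, fell by 0.58 on the log2 scale and passed in 3 of 12 fits that left out a library. Ace, angiotensin-converting enzyme, fell from 609 to 382 CPM (log2 fold change -0.67). The endothelin receptor Ednra had a positive value that did not pass (0.65, edgeR adjusted p = 0.0137), and so did the angiotensin receptor Agtr1b (3.44, edgeR adjusted p = 0.0615). DESeq2 called 5 lower and 1 higher. In the upward direction, 4 of the 25 had an unadjusted p under 0.05 with edgeR.

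Of 25 genes for oxygen sensing, 1 was lower and 1 higher (4% each), near the 2.44% and 1.59% of all tested genes, so the list as a whole did not stand out. Egln3 (chr12:54178981-54203860, minus strand), a prolyl hydroxylase that marks hypoxia-inducible factor for destruction when oxygen is present, was at 33.1, 34.4, 45.8, 38.0 and 44.1 CPM against 239.9 to 630.1 CPM with a median of 387 CPM (log2 fold change -3.41, SE 0.23, edgeR adjusted p = 1.4e-07). The 5 Prdm6-deficient values lay close together and the lowest control was several times higher. Ndufa4l2, a mitochondrial protein of the hypoxia response, rose from 20.2 to 79.5 CPM (log2 fold change 1.98). The factors Hif1a (-0.10) and Epas1 (-0.07) and the other hydroxylases Egln1 (-0.03) and Egln2 (-0.10) did not pass.

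Potassium channels set the resting voltage of SMCs, and closing them favours contraction. Of 29 measured channel genes, 4 were lower and 3 higher. Both subunits of the vascular ATP-sensitive channel fell. Kcnj8, its pore, was at 57.5, 66.3, 71.1, 44.9 and 54.3 CPM against 219 to 484 CPM with a median of 296 CPM (log2 fold change -2.48, SE 0.19, edgeR adjusted p = 3.8e-07), and Abcc9, its sulfonylurea receptor, fell from 178 to 79.4 CPM (log2 fold change -1.16). The 2 genes lie next to each other on chromosome 6, 16248 bp apart. The background channels Kcnk1 and Kcnk3 fell by 2.59 and 1.52 on the log2 scale. Kcna5, an oxygen-sensitive voltage-gated channel, was at 42.1, 56.7, 58.7, 75.7 and 61.9 CPM against 9.97 to 30.9 CPM with a median of 20.0 CPM (log2 fold change 1.5, SE 0.22, edgeR adjusted p = 2.9e-04). The voltage-gated modifier Kcns3 rose from 3.31 to 12.8 CPM (log2 fold change 1.95) and the subunit Kcnab1 from 11.8 to 46.6 CPM (log2 fold change 1.98), and Kcnab1 passed in 5 of 12 fits that left out a library. Of 30 calcium-handling genes, 2 (6.67%) were lower and 0 higher with edgeR, against 2.44% and 1.59% of all tested genes. With DESeq2, 3 were lower and 0 higher. The store pump Atp2a2 fell from 343 to 204 CPM (log2 fold change -0.75) and the exchanger Slc8a1 from 81.7 to 55.6 CPM (log2 fold change -0.56), and 5 genes had a positive value at an unadjusted p under 0.05. The L-type channel Cacna1c had a value of -0.37 (edgeR adjusted p = 0.282).

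Genes of cyclic nucleotide signaling, which relaxes SMCs, were called lower in 5 of 32 cases and higher in 5. The number called lower was 3 without Prdm6-deficient replicate 1, 2, 5 or 7. The number called higher was 3 without Prdm6-deficient replicate 1 or 7. The nitric oxide receptor, soluble guanylate cyclase, rose in both subunits: Gucy1a1 was at 297, 322, 248, 321 and 390.0 CPM against 40.6 to 178 CPM with a median of 96.2 CPM (log2 fold change 1.68, SE 0.30, edgeR adjusted p = 0.00131), and Gucy1b1 rose from 99.9 to 183 CPM (log2 fold change 0.87) and passed in 8 of 12 fits that left out a library. The natriuretic peptide receptor Npr1 (0.71), the cyclic GMP kinase Prkg1 (0.66) and the cyclic GMP phosphodiesterase Pde5a (0.53) also rose. Npr3, the clearance receptor of natriuretic peptides, fell from 141 to 58.6 CPM (log2 fold change -1.27). The 4 other decreases were in phosphodiesterases that act on cyclic AMP: Pde10a (-2.48), Pde4d (-1.69), Pde4b (-1.0) and Pde3b (-0.85). Outside this list, Rergl, a Ras-like protein, had 3 counts or fewer in every control library and was at 4.18, 7.40, 6.47, 5.58 and 4.43 CPM in Prdm6-deficient samples, at least 34.7-fold higher. The call held for Prkg1 in 8, Pde5a in 11, Pde4b in 4 and Pde3b in 8 of the 12 fits without 1 library.

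Notch signaling lets neighbouring vascular cells direct SMC fate, and of 21 measured genes 5 rose and 1 fell. The target gene Heyl was at 339, 299, 389, 311 and 293 CPM against 69.3 to 172 CPM with a median of 119.8 CPM (log2 fold change 1.44, SE 0.19, edgeR adjusted p = 8.9e-05). The receptors Notch3 (148 to 292 CPM, log2 fold change 0.98) and Notch1 (0.81), the ligand Jag1 (0.92) and the target Hes1 (0.92) rose with it. The glycosyltransferase Lfng, which modifies the receptors, fell (-0.69) and passed in 2 of 12 fits that left out a library.

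Of 45 genes of TGF-beta and bone morphogenetic protein (BMP) signaling, 7 were lower and 1 higher, and the 4 largest decreases were in BMP-binding proteins. Chrdl2, chordin-like 2, stayed at or under 3 counts throughout the Prdm6-deficient libraries against 2.79 to 11.9 CPM with a median of 7.62 CPM in controls, at least 47.3-fold lower. Grem1, gremlin, was at 0, 1.36, 0, 0.518 and 0.197 CPM against 18.8 to 45.4 CPM with a median of 23.8 CPM (log2 fold change -6.17, SE 0.62, edgeR adjusted p = 6.2e-06). Noggin (Nog) fell from 7.59 to 1.14 CPM (log2 fold change -2.73) and Bmper from 135 to 23.7 CPM (log2 fold change -2.52). The other 3 decreases were smaller, in the BMP target genes Id2 (-0.69) and Id4 (-0.53) and the ligand Tgfb2 (-0.50). Gdf10, a ligand of this family, rose from 59.0 to 225 CPM (log2 fold change 1.93). With 1 library left out, the call held for Id4 in 6 and Tgfb2 in 3 of the 12 fits.

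Of 42 Wnt genes, 8 were lower and 5 higher, with secreted regulators on both sides. The number called higher was 3 without Prdm6-deficient replicate 1 or control replicate 5. Frzb, a secreted Wnt inhibitor, was at 229, 124, 226, 159.7 and 106 CPM against 23.7 to 49.0 CPM with a median of 27.2 CPM (log2 fold change 2.31, SE 0.23, edgeR adjusted p = 4.8e-06). Rspo3, an enhancer of Wnt signaling, rose from 19.2 to 90.1 CPM (log2 fold change 2.23) and the inhibitor Dkk2 from 31.5 to 69.5 CPM (log2 fold change 1.14), with Fzd8 (0.84) and Dkk3 (0.50). Sfrp1, another secreted inhibitor, fell from 900.5 to 339.8 CPM (log2 fold change -1.41), the feedback inhibitor Nkd1 fell from 149 to 67.3 CPM (log2 fold change -1.15), and Wnt9a fell from 29.3 to 13.8 CPM (log2 fold change -1.08). Among 45 growth factor genes, 5 were lower and 5 higher. Igfbp2, which binds insulin-like growth factors, fell from 657 to 120.1 CPM (log2 fold change -2.45), the receptor Fgfr2 from 144 to 41.9 CPM (log2 fold change -1.79) and Kitl, the ligand that melanoblasts and mast cells need, from 70.2 to 29.4 CPM (log2 fold change -1.26). Ccn2 (-1.26) and Ccn1 (-0.80) also fell. Angpt1 and Angpt2, both ligands of the endothelial receptor Tek, rose from 1.88 to 15.2 CPM (log2 fold change 3.01) and from 161 to 357 CPM (log2 fold change 1.15). Bdnf (1.22), Fgf2 (0.79) and Pdgfrb (0.55) rose as well. Of 50 axon guidance genes, 2 (4%) were lower and 3 (6%) higher, against 2.44% and 1.59% of all tested genes. Epha4 (-1.86) and Ephb2 (-0.81) fell, and Epha3 (1.91), Efna5 (1.09) and Plxna2 (0.83) rose. The call held for Fzd8 in 7, Dkk3 in 5, Wnt9a in 9, Ccn1 in 4, Ephb2 in 7 and Plxna2 in 7 of the 12 fits without 1 library.

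Of 34 collagen chains, 7 were higher and 3 lower. Col11a1 rose from 10.6 to 48.2 CPM (log2 fold change 2.18), Col8a1 from 16.3 to 57.4 CPM (log2 fold change 1.81) and Col12a1 from 163 to 357 CPM (log2 fold change 1.13), and Col8a1 passed in 5 of 12 fits that left out a library. Col8a2 (-0.89), Col6a2 (-0.69) and Col6a1 (-0.56) fell, while Col6a3, the third chain of collagen VI, rose (1.10). Of 64 elastic fibre, matricellular and proteoglycan genes, 10 were lower and 6 higher. Postn, periostin, was at 3744, 2788, 3529, 2864 and 2569 CPM against 630.0 to 1922 CPM with a median of 1173 CPM (log2 fold change 1.37, SE 0.20, edgeR adjusted p = 2.9e-04). Hapln1 and Acan, partners in hyaluronan-rich matrix, rose from 7.87 to 29.3 CPM (log2 fold change 1.90) and from 85.9 to 261 CPM (log2 fold change 1.6), and the proteoglycan lumican (Lum) rose from 178 to 482 CPM (log2 fold change 1.43). Loxl4, a crosslinking enzyme, fell from 42.9 to 3.88 CPM (log2 fold change -3.47), thrombospondin-1 (Thbs1) from 551 to 110.2 CPM (log2 fold change -2.32), tenascin-N (Tnn) from 39.0 to 13.4 CPM (log2 fold change -1.54) and fibronectin (Fn1) from 3149 to 1811 CPM (log2 fold change -0.80). Elastin (Eln) was at 49679 to 70124 CPM in Prdm6-deficient and 47341 to 67818 CPM in control DA, and its value of 0.07 did not pass. When each library was left out, Col6a1 in 3 of the 12 fits kept the call.

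Of 37 genes for matrix proteases and related proteins, 6 were lower and 2 higher. Adamts9 fell from 312 to 100.4 CPM (log2 fold change -1.63), the plasminogen activator Plau from 26.4 to 10.5 CPM (log2 fold change -1.34) and Adamtsl3 from 34.0 to 13.9 CPM (log2 fold change -1.29), the last passing in 4 of 12 fits that left out a library. The aggrecan-cutting protease Adamts5 rose from 45.2 to 103 CPM (log2 fold change 1.19) and Mmp16 from 26.9 to 45.2 CPM (log2 fold change 0.75). Among 34 adhesion genes, 3 were lower and 5 higher. The number called higher was 3 without Prdm6-deficient replicate 5, 6 or 7 or control replicate 7. Lims2 (-1.28), Itga9 (-1.16) and Mcam (-0.99) fell. The collagen-binding integrins Itga11 (1.6) and Itga10 (1.44), with Cdh6 (1.43), Itgbl1 (1.23) and Alcam (1.01), rose. Of 8 connexins, which join cells by gap junctions, Gja1 fell from 113 to 45.1 CPM (log2 fold change -1.32) and Gja4 rose from 59.4 to 145 CPM (log2 fold change 1.29). Of 37 cell cycle genes, Ccne1 was the only one called (-1.13, 5 of 12 fits that left out a library), a share of 2.7% that is near the 2.44% of all tested genes called lower. Of the 37, 32 had negative values, against 7522 of all 15157 tested genes, with a median of -0.19. With 1 library left out, the call held for Itga10 in 4, Cdh6 in 8 and Alcam in 7 of the 12 fits.

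**Figure D4:**
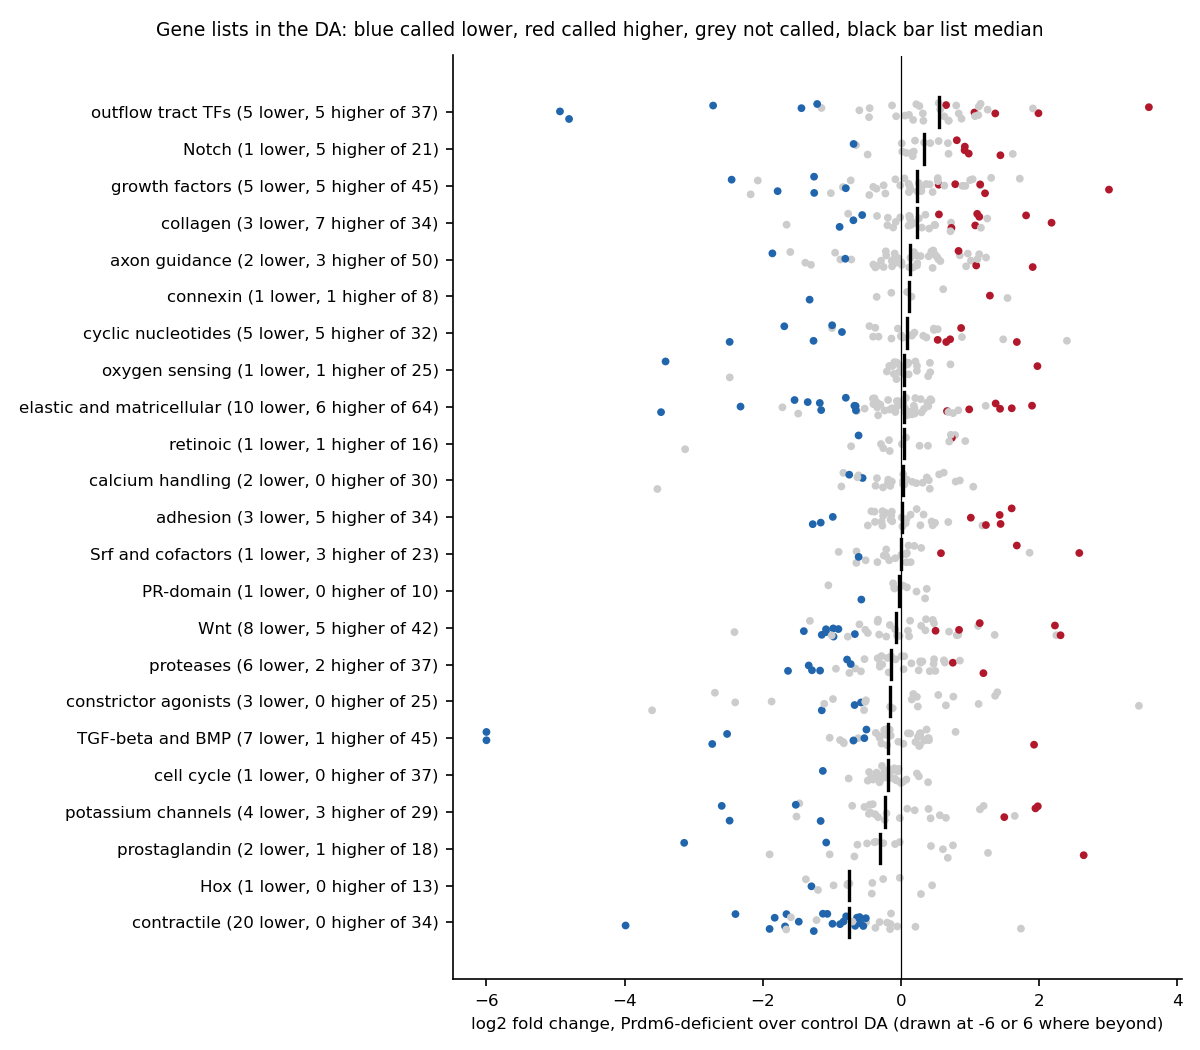
Each row is a gene list and each point a tested member, with the log2 fold change of Prdm6-deficient over control DA on the x axis, values beyond -6 or 6 drawn there, and a bar at the list median. The contractile list holds 20 genes called lower and 0 called higher, whereas most other lists hold called genes on both sides.

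In 12 genes expression fell to the detection limit, with at most 3 counts throughout the Prdm6-deficient libraries and more than 3 in every control at a control mean of 1 CPM or more. Besides Chrdl2 these were the melanocyte genes Dct and Tyrp1, Gpnmb, Galnt14, the long noncoding RNA Fendrr, Crhbp, Epgn, Mcoln3, Gm13910, Cldn19 and Reep6. Fendrr lies 1276 bp from Foxf1 on the opposite strand and was at least 31.9-fold lower. Crhbp, which binds corticotropin-releasing hormone, was at least 27.5-fold lower, Galnt14, a glycosyltransferase, at least 47.0-fold, and Mcoln3, a cation channel of endosomes, at least 21.5-fold. In the reverse direction, 2 genes went from 3 counts or fewer in every control to more than 3 in every Prdm6-deficient library, Rergl and the heparanase relative Hpse2, which was at least 24.0-fold higher. Among the largest increases were also Chrna2, an acetylcholine receptor subunit (0.376 to 8.65 CPM, log2 fold change 4.51), Ppfia2, a scaffold of synapses (1.76 to 24.2 CPM, log2 fold change 3.78), the neurexin ligand Nxph1 (1.57 to 16.9 CPM, log2 fold change 3.42), the nuclear factor Tox (1.15 to 9.72 CPM, log2 fold change 3.07) and Fabp7, a glial lipid carrier (1.42 to 12.1 CPM, log2 fold change 3.08). Fabp7 passed in 3 of 12 fits that left out a library. Among called genes, the 6 largest gains of mean CPM were in Postn, the stem and fibroblast antigen Cd34 (554 to 1317 CPM, log2 fold change 1.25), the calcification inhibitor Mgp (817 to 1515 CPM, log2 fold change 0.89), Tm4sf1 (904 to 1471 CPM, log2 fold change 0.70), the secreted kinase Pkdcc (601 to 1018 CPM, log2 fold change 0.76) and Lum.

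Markers of other cell types were read as levels beside these changes. Summed melanocyte markers were 4.10 to 13.2 CPM in Prdm6-deficient and 46.5 to 242 CPM in control DA, and 4 of the 8 tested markers fell, Dct, Tyrp1, Trpm1 and Pmel. Of all 12 markers 8 had at most 3 counts in each of the Prdm6-deficient libraries, and 1 had so few in each of the controls. Dct and Tyrp1, enzymes of pigment synthesis, were at or below 3 counts in all 5 Prdm6-deficient libraries and reached 128 and 32.1 CPM in control replicate 3. Trpm1 passed in 1 of 12 fits that left out a library. Summed Schwann cell markers were 282 to 395 CPM against 203 to 506 CPM, with 1 of 12 called higher by edgeR and 2 by DESeq2, a median log2 fold change of 1.07 and 8 of 12 positive values. Pmp22 alone, at 191 to 224 CPM against 176 to 244 CPM (log2 fold change -0.04), made up most of the Prdm6-deficient sums, so the sums say little about the other markers. Without control replicate 7, whose sum of 506 CPM stood above the 203 to 289.8 CPM of the other controls, 4 were called higher, Erbb3 and Fabp7 among them. In 9 of the 12 fits that left out a library 0 were called. Summed autonomic neuron markers were 40.5 to 77.5 CPM against 28.0 to 54.5 CPM, with 1 of 8 called, Elavl4 (2.43). Summed fibroblast markers were 3126 to 3501 CPM against 1541 to 2629 CPM, without overlap. Cd34 and Lum were called higher among 10 fibroblast markers, whose median was 0.09, and the other 8 were not called. Much of the difference of the sums lay in Cd34 (991 to 1622 CPM against 487 to 600 CPM) and Lum (428 to 552 CPM against 110 to 314 CPM). Summed pericyte markers were 4060.4 to 7929.7 CPM against 6142 to 11695 CPM, and of 7 tested markers Kcnj8 and Abcc9 fell while Ndufa4l2 and Pdgfrb rose. Summed chondrocyte markers were 236 to 315 CPM against 93.9 to 190.4 CPM, of which Acan rose and Sox9 fell. Acan alone, at 222 to 298 CPM against 33.7 to 166 CPM, made up most of the Prdm6-deficient sums. The higher sum is therefore not a rise of the list, where 2 of 5 tested markers had negative and 3 positive values. Sox9 was at 3.15 to 7.24 CPM against 14.3 to 47.7 CPM. Summed skeletal muscle markers were 21.8 to 50.4 CPM against 51.8 to 236 CPM, with 0 of 6 called by edgeR and 3 called lower by DESeq2. The endothelial list, at 1384 to 1923 CPM against 1143 to 1574 CPM, had 0 of 14 called and a median of 0.07, and the macrophage list 0 of 12. The cardiomyocyte (10 tested), erythroid (7), mesothelial (6), epithelial (5), brown fat (4) and lymphoid (2) lists also had 0 called by edgeR, and among these lists and the endothelial and macrophage lists DESeq2 called 1 brown fat marker and 0 others. At an unadjusted p under 0.05 edgeR had 4 endothelial, 0 macrophage and 3 skeletal muscle markers, 2 cardiomyocyte markers, and 1 each of the erythroid, epithelial and brown fat lists. The part of these cells in the results above was not tested. With 1 library left out, the call held for Elavl4 in 6 of the 12 fits.

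**Figure D5:**
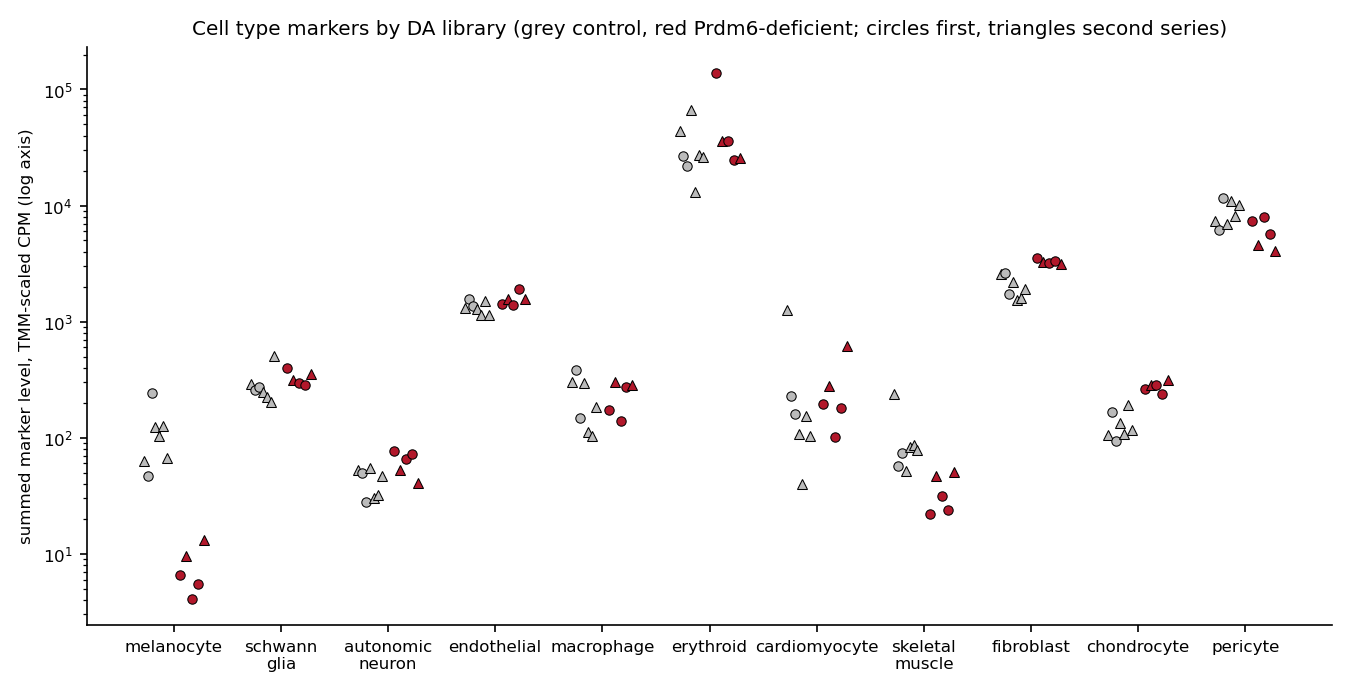
Summed TMM-scaled CPM of the markers of 11 cell types in each DA library on a log axis, grey for control and red for Prdm6-deficient, circles for the first and triangles for the second animal series. The melanocyte sum lies below every control in all 5 Prdm6-deficient libraries, and the endothelial sums overlap.

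Of the 20 genes that the study names for this vessel, 8 were lower, 5 were higher and 7 did not pass in the DA. The number called higher was 3 without Prdm6-deficient replicate 1, 2 or 6 or control replicate 1, 4 or 7. The list was chosen by the study with these samples in hand, so its counts are no independent evidence. The effect of Prdm6 loss in the DA was set against that in the ascending aorta by the interaction of genotype and vessel in a fit of all 23 libraries, without a term for the embryos that gave both vessels. This fit gives both vessels a shared spread, although the DA varied more (43.2% against 24.3%). Its adjusted p may thus be too small for the DA. Across 16463 genes, 436 (2.65%) had an interaction with an adjusted p below 0.01, 279 (1.69%) more negative and 157 (0.954%) more positive in the DA. Of the 20 named genes 9 did, 7 more negative and 2 more positive. The difference of DA minus aorta was -2.88 for Ptger4 (SE 0.32, edgeR adjusted p = 2.4e-06), with group means of 195 and 22.2 CPM in the DA and 30.8 and 25.9 CPM in the aorta for control and Prdm6-deficient samples. Myh11 had means of 2005 and 538 CPM in the DA and 536 and 520.0 CPM in the aorta, and a difference of -1.85 (adjusted p = 7.8e-05). Notch3 and Jag1 differed in the other direction, by 0.82 and 0.78 (adjusted p = 0.00419 and 0.00395). For Tfap2b, which was low in the control aorta, the difference was -3.41 and did not pass (adjusted p = 0.0763). The 7 named genes that did not pass in the DA were Srf, Acta2, Myocd, Ilk (-0.25), Hoxb5 (-0.77), Gja5 (0.61) and Fbln1 (0.67).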

How the data were processed

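Both vessels of mouse embryos were profiled by RNA-Seq. The authors filtered the reads for base quality, aligned them to mm10 with STAR and estimated expression per gene with RSEM and GENCODE. The versions of STAR and RSEM are not given in the sources used here. The deposited values are expected counts, that is, estimated counts without normalization, of which 7.71% are not whole. They were rounded before testing. RSEM divides reads among similar genes, and counting by strand is not stated, so paralogs and overlapping genes are uncertain. All columns were matched to samples by name, and 0 were left over. Symbols and coordinates come from GENCODE M21 on GRCm38. Of 54752 identifiers, 54723 matched without and 53861 with their version, and 29 were not in it.

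The 5 Prdm6-deficient and 7 control DA libraries were fitted with edgeR 4.0.16 in R 4.3.3 (filterByExpr, TMM, quasi-likelihood test, Benjamini-Hochberg adjustment over all tested genes, 2-sided). The aorta libraries were kept out because DA libraries varied more. The interaction with vessel used all 23 libraries, with a spread shared by both vessels that may be too small for the DA. SEs are the log2 fold change divided by the square root of F. Folds against a group with 3 counts or fewer in every library are lower bounds against 3 counts per library, which cover counting error only. The procedure was tested on simulated data. DESeq2 1.42.0 served as an alternative. The DA samples come from separate embryos per the labels, with litters not stated, and no pair of libraries agreed within sampling noise (chi-square per gene at least 24.3).

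The members and gene lists were chosen with earlier results of these data known. Named genes are Prdm6, the 8 largest decreases and increases by log2 fold change among calls whose average log2 CPM reached 1 and whose groups did not overlap, the 6 called genes each way with the largest difference of mean CPM, up to 3 called genes each way per list, and all 20 study-named genes. Some called genes and lists are not reported here. All other genes named, in the closing section too, were chosen after their values were seen, among them genes that complete a small count or did not pass.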

Additional observations from a re-analysis of the deposited data

Results flagged for a closer look

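In 13 of 330 groups of values (165 genes in 2 groups), 1 sample stood apart from the rest of its group by more than Dixon's 95% limit, where chance flags about 5% of groups. Prdm6-deficient replicate 2 stood apart in Ccn2 (at 692 CPM against 432 to 492 CPM in the rest of the group). Prdm6-deficient replicate 5 stood apart in Fbln1 (at 121 CPM against 190.5 to 215 CPM in the rest of the group). Prdm6-deficient replicate 6 stood apart in Pde3b (at 51.9 CPM against 34.3 to 38.0 CPM in the rest of the group) and Gja5 (at 87.4 CPM against 41.2 to 52.4 CPM in the rest of the group). Prdm6-deficient replicate 7 stood apart in Tbx2 (at 30.3 CPM against 52.9 to 61.8 CPM in the rest of the group) and Notch1 (at 75 CPM against 62.0 to 65.7 CPM in the rest of the group). Control replicate 1 stood apart in Srf (at 56.7 CPM against 84.7 to 104 CPM in the rest of the group). Control replicate 3 stood apart in Hsp90aa1 (at 700 CPM against 512 to 579 CPM in the rest of the group) and Nr4a3 (at 18.4 CPM against 6.26 to 9.84 CPM in the rest of the group). Control replicate 4 stood apart in Ereg (at 3.71 CPM against 7.80 to 10.4 CPM in the rest of the group). Control replicate 6 stood apart in Kcns3 (at 7.08 CPM against 1.42 to 3.83 CPM in the rest of the group), Hes1 (at 29.8 CPM against 15.9 to 18.8 CPM in the rest of the group) and Wnt9a (at 40 CPM against 25.2 to 31.4 CPM in the rest of the group).

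For 9 of the 20 study-named genes the effect of Prdm6 loss differed between DA and aorta by the interaction test (edgeR adjusted p below 0.01, fit of 23 libraries). The spread in this fit is shared with the aorta and may be too small for the DA. The difference of log2 fold changes, DA minus aorta, was -2.88 for Ptger4, 0.78 for Jag1, 0.82 for Notch3, -1.85 for Myh11, -2.30 for Actg2, -1.33 for Cnn1, -0.76 for Tagln, -1.64 for Mylk and -1.78 for Edn1. Part of the difference for Mylk and Edn1 lay in positive values in the aorta (0.65 and 0.64), beside -0.99 and -1.14 in the DA in this fit.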

How the results depend on the processing

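The count of 611 called genes stayed within 1.5 times under the other normalizations (605 with RLE and 602 with upper quartile factors), the other filters (609 with at least 1 CPM in 5 libraries and 631 without a filter), DESeq2 (858), all libraries of both vessels fitted together (894), the animal series as a covariate (548) and without the Cre-carrying control (623). It was 61 within the first and 147 within the second animal series, 359 without the pooled samples, and 376 without the 3 libraries with the highest erythroid, cardiomyocyte and Schwann cell markers, an alternative chosen after the data were seen. These fits hold fewer samples. Leaving out each library gave 486 to 647. The replicate numbers do not mark shared animals, and samples of the same number did not deviate together (correlations of -0.06 to 0.16). With the replicate block 455 genes were called.

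Prdm6 had log2 fold changes of -0.55 within the first series (edgeR adjusted p = 0.0839), -0.71 within the second (0.0667), -0.60 without the pooled samples (0.0271) and -0.55 with the replicate block (0.0267), none past 0.01. Leaving out each library gave -0.62 to -0.50. The interaction count of 436 ranged from 378 with the replicate block to 445 with the CPM filter, and from 379 to 506 with each DA library left out. No log2 fold change of the 164 other genes tested by name changed sign under any alternative, and 614 values fell below the threshold, 124 of them in the fit of the first series and 101 in that of the second, while 8 passed it anew. With the replicate block 35 of the 164 lost their call. Depth limits genes below about 0.2 CPM, which cannot be told from 0.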

Other observations

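Gene groups beyond the lists above were looked at after their values were seen, and no test of a group was made. Of 12 tested genes of the EGF family, 4 ligands were called lower and 0 genes higher by edgeR, with 6 values of each sign. Without control replicate 7, 2 were called higher, Hbegf and Erbb3, and DESeq2 and the fit of both vessels each called 1 higher. Btc, betacellulin, was at 17.3, 7.29, 16.2, 10.4 and 13.5 CPM in Prdm6-deficient samples against 94.3 to 234 CPM with a median of 145 CPM in controls (log2 fold change -3.53, SE 0.27, edgeR adjusted p = 3.8e-07). Epgn, epigen, stayed at or under 3 counts throughout the Prdm6-deficient libraries (at least 23.5-fold lower), Ereg, epiregulin, fell from 8.40 to 1.79 CPM (log2 fold change -2.23) and Nrg2, neuregulin 2, fell from 5.12 to 1.16 CPM (log2 fold change -2.13), passing in 1 of 12 fits that left out a library. Ereg and Btc are neighbours on chromosome 5. Of 4 tested genes of the Fraser complex, which anchors epithelia to the matrix beneath, Frem2 (16.0 to 1.56 CPM, log2 fold change -3.35), Frem1 (25.1 to 6.60 CPM, log2 fold change -1.92) and Fras1 (27.0 to 8.35 CPM, log2 fold change -1.69) fell. Npnt, nephronectin, which binds this complex, fell from 36.1 to 14.2 CPM (log2 fold change -1.35). With 1 library left out, the call held for Frem1 in 10 of the 12 fits.

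Of 12 heat shock genes, 5 fell and 0 rose: Hspa1b (48.7 to 10.4 CPM, log2 fold change -2.23), Hspa1a (43.7 to 10.7 CPM, log2 fold change -2.03), Hspb1 (231 to 87.2 CPM, log2 fold change -1.40), Hspb8 (-1.08) and Hsp90aa1 (-0.52). Hspa1a and Hspa1b are near-identical neighbours on chromosome 17. Of 18 immediate early genes, 3 fell and 0 rose with edgeR. The number called lower was 1 without Prdm6-deficient replicate 5 or 6. Nr4a3 (-3.30), Nr4a1 (-1.46) and Egr1 (-1.19) fell, while Fos (-0.39) and Jun (-0.27) did not pass. The call held for Hsp90aa1 in 10, Nr4a3 in 9 and Egr1 in 8 of the 12 fits without 1 library.

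The smallest adjusted p of all was that of Clca3a2, a calcium-activated chloride channel regulator, which fell from 904 to 82.1 CPM (log2 fold change -3.46), with an edgeR adjusted p of 8.7e-09. It has close paralogs, among which the counting could divide reads. The ketone body enzyme Bdh1 fell from 40.7 to 0.618 CPM (log2 fold change -6.02), the Wnt inhibitor Apcdd1 from 68.4 to 9.71 CPM (log2 fold change -2.82) and the cytochrome P450 reductase Por from 152 to 45.1 CPM (log2 fold change -1.75). The epoxide hydrolase Ephx2 rose from 49.4 to 217 CPM (log2 fold change 2.13), with its neighbour Chrna2 10539 bp away. Colec10, a collectin, rose from 14.6 to 108 CPM (log2 fold change 2.89) and the glycogen primer Gyg from 36.2 to 119.6 CPM (log2 fold change 1.72).

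Within 10 Mb of Prdm6 on chromosome 18, 8 of 85 other tested genes (9.41%) were called, against 4.03% of all tested genes. Among them is the ion cotransporter Slc12a2 (144 to 33.7 CPM, log2 fold change -2.10). Its neighbour 4930511M06Rik, 326281 bp away, had a log2 fold change of -8.24. Every Prdm6-deficient sample and no control was PRDM6f/f. Sequence linked to the floxed gene and loss of Prdm6 therefore cannot be told apart here.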
